A study of Danio rerio with 9 samples.

Results

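The transcripts described here were on in every Schwann cell library and low in every oligodendrocyte lineage and neuron library. A transcript was taken when its level was at least 20 CPM (estimated counts per 1000000 counts of the library) in all 3 Schwann cell libraries and under 10 CPM in the other 6 libraries. The rule ranked the transcripts by log2(lowest Schwann cell CPM + 1) minus log2(highest CPM of the other 6 libraries + 1) and allowed up to 100. It found 33 of 52216 transcripts, so all 33 were kept. They were thus selected on their CPM in all 9 libraries, and those levels are given as a description. No test of Schwann cells against the other populations is used as support for them.

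The 9 RNA sequencing libraries came from cells sorted out of trunks of 72 hours post fertilization zebrafish of the AB* strain, with 3 libraries per population. Schwann cells were sorted as cells positive for both reporters from Gt(foxd3:mCherry);Tg(sox10:mEGFP) fish. Oligodendrocyte lineage cells were sorted as double positives from Tg(olig2:dsred);Tg(sox10:megfp) fish, and neurons as dsred-positive cells from Tg(nbt:dsred) fish. The anterior body was removed from all fish before dissociation, and the labels give no treatment that differed between groups. The foxd3 reporter is a gene trap, an insertion into the gene itself, and the labels do not say whether the fish carried it on a single copy or on both copies of the gene. Each population came from fish with its own set of transgenes, so a difference between cell types and a difference between those fish or their sorts cannot be told apart.

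Schwann cells are the glia that ensheathe and myelinate axons of peripheral nerves. They arise from the neural crest, a migratory embryonic population in which the transcription factors foxd3 and sox10 are active, and other crest derivatives such as pigment cells pass through the same state. Oligodendrocytes do the corresponding work in the central nervous system and also use sox10, so a pair of sox10-positive glial types and a neuronal population are compared here. In sorted bulk RNA, fewer cells of a type and less RNA per cell cannot be told apart.

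The files give Ensembl transcript IDs without gene names, and 0 of the IDs were found in the gene tables used for lookup. Schwann cell, oligodendrocyte and neuron marker genes were therefore not checked, and no gene function is assigned to any transcript. The transcripts are called by their rank from 1 to 33, and the IDs of ranks 1 and 2 are printed. Nothing in the labels says that libraries of a population came from separate clutches or sorts, so every p-value below measures only the spread between these libraries, which may be technical.

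Summed counts were 7123251 to 11191844 in the Schwann cell libraries, 11869510 to 15266878 in the oligodendrocyte lineage libraries and 11439759 to 17126213 in the neuron libraries. At these depths 20 CPM stood for 142 to 224 counts in a Schwann cell library, and 10 CPM for 114 to 171 counts in the other libraries. A count of 0 allows a level of up to 0.175 to 0.262 CPM in the other 6 libraries, taken as 3 counts. This limit covers counting error only, since PCR copies are not marked by molecular identifiers. A library is called at 0 here when its estimated count rounds to 0.

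Rank 1, ENSDART00000022348.7, was by far the most abundant of the 33. It was at 2370, 2676 and 1954 CPM in Schwann cells, at 1.44, 0.262 and 0.505 CPM in oligodendrocyte lineage libraries, and at 8.47, 0.0874 and 0.147 CPM in neuron libraries. All Schwann cell libraries were high and close to each other, and neurons replicate 1 stood above the other 5 low libraries. The mean was 2333 ± 363 CPM in Schwann cells, against 0.736 ± 0.622 CPM over the oligodendrocyte lineage libraries and 2.90 ± 4.82 CPM over the neuron libraries (SD over 3 libraries in each case). The ratio of means was 3169 for Schwann cells over the oligodendrocyte lineage and 805 for Schwann cells over neurons. Rank 1 made up 42.5% of the summed Schwann cell level of the 33 transcripts.

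Rank 2, ENSDART00000027013.4, was at 162, 220 and 352 CPM in Schwann cells. Its 2 counts outside Schwann cells were both in oligodendrocyte lineage replicate 3, and all 3 neuron libraries were at 0. Against 3 counts summed over the neuron libraries its mean of 245 ± 97.3 CPM in Schwann cells (SD, n = 3) was at least 3444-fold higher. Its Schwann cell libraries differed more than those of rank 1, with the highest 2.17 times the lowest.

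Rank 3 was the steadiest of the 33 and had no count elsewhere. It was at 137, 133 and 136 CPM in Schwann cells, and all 6 other libraries were at 0. The highest Schwann cell library was 1.03 times the lowest, and the mean was at least 1880-fold higher than in the oligodendrocyte lineage and at least 1903-fold higher than in neurons, each against 3 counts over the group. Rank 5 was the other transcript at 0 in all 6 libraries, at a lower level of 42.2, 25.1 and 37.8 CPM in Schwann cells. Both had fractional estimated counts in some library, so their reads were partly divided with other transcripts. Their zeros and the fold limits of rank 3 depend on that division, and the limits cover counting error only.

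Rank 4 had a few counts in 4 of the other 6 libraries. It was at 145, 139 and 248 CPM in Schwann cells. The oligodendrocyte lineage libraries were at 0.137, 0.459 and 0 CPM, and the neuron libraries at 0.759, 0 and 1.1 CPM. All low libraries lay far below the Schwann cell libraries. In all, 6 of the 33 transcripts, ranks 2, 3, 5, 7, 9 and 10, stayed under 1 CPM in each of the other 6 libraries.

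**Figure D1:**
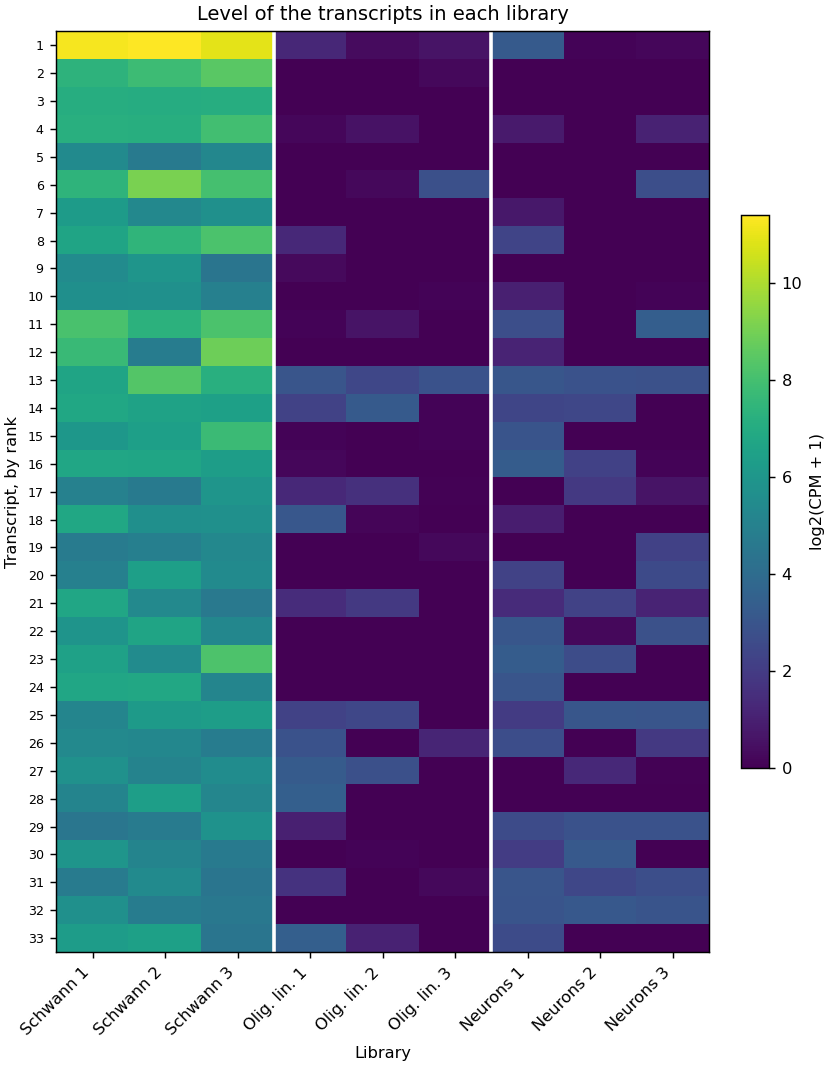
Level of each of the 33 transcripts (rows, by rank) in each library (columns), as log2(CPM + 1) in colour. In each row the 3 Schwann cell columns are brighter than the other columns, down to 20.5 CPM, and rank 1 is the brightest row at 1954 to 2676 CPM. The low columns hold scattered values up to 9.87 CPM, most often in neurons replicate 1.

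Below rank 1 the Schwann cell levels were moderate. Mean levels of all 33 ran from 29.6 to 2333 CPM, and the highest after rank 1 was 326 CPM, for rank 6. Their median was 62.6 CPM, against 129 CPM for all 2647 transcripts at 20 CPM or more in every Schwann cell library. Only 7 of the 33 reached 100 CPM in all 3 Schwann cell libraries, and 11 had a mean under 50 CPM. The 5 most abundant, ranks 1, 6, 2, 11 and 12, made up 61.6% of the summed level. Of these 5, rank 11 was at 9.45 CPM in neurons replicate 3. It did not meet the rule under any of the 4 other scalings of the last section. Summed over the 33, the level was 5111, 5791 and 5554 CPM in Schwann cells, against 66.6, 30.5 and 14.6 CPM in oligodendrocyte lineage libraries and 114, 61.4 and 67.5 CPM in neuron libraries. The 33 thus took 0.511% to 0.579% of the counts of a Schwann cell library. Without rank 1 the sums were 2742, 3114 and 3601 CPM in Schwann cells, so the library with the lowest rank 1 level had the highest sum of the rest.

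The order changed when levels were set per length, as TPM, which divides the counts by the deposited effective lengths. Rank 1 stayed first at 1914 ± 249 TPM in Schwann cells (SD, n = 3). Rank 13, 1029 bases long, was sixth by CPM but came second at 498 ± 278 TPM. Rank 8, the longest at 6965 bases, was seventh by CPM and 27th by TPM, at 50.5 ± 25.9 TPM. Rank 17, the shortest at 714 bases, was 27th by CPM and sixth by TPM, at 199.7 ± 101 TPM. With TPM in place of CPM in the same rule, 39 transcripts met the thresholds and only 15 of the 33 were among them. Of the 18 that dropped out, 5 fell under 20 TPM in a Schwann cell library and had a median length of 4848 bases. The other 13 reached 10 TPM or more in another population. They had a median length of 1339 bases, against 2332 bases for the 15 that stayed. Ranks 13 and 17 were among those 13, so by TPM they were high in Schwann cells but did not meet the rule.

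**Figure D2:**
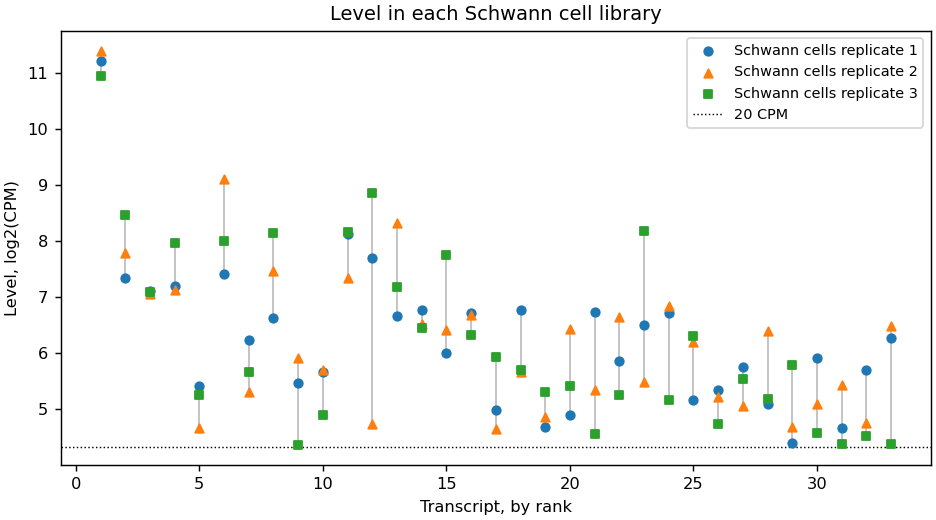
Level of each of the 33 transcripts in the 3 Schwann cell libraries, as log2(CPM) by rank, with a line from the lowest to the highest library and the 20 CPM threshold dotted. Rank 3 spans 1.03-fold and rank 12 spans 17.5-fold.

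The spread between Schwann cell libraries was wide for most of the 33 and about that of other transcripts. The highest library was a median of 2.25 times the lowest, against 2.37 times for the 2647 transcripts at 20 CPM or more in every Schwann cell library. It was under 2 times for 12 of the 33 (36.4%, against 38.1% of the 2647). The widest was rank 12, at 208, 26.5 and 464 CPM in Schwann cells, which is 17.5-fold from Schwann cells replicate 2 to replicate 3. Rank 23 followed at 90.4, 44.5 and 290 CPM, a 6.53-fold range. Each Schwann cell library was the highest for 11 of the 33. The rule itself required 20 CPM or more in all 3, so nothing is read from this. Across the 2647 transcripts, replicates 1, 2 and 3 were the highest for 33.7%, 44.4% and 21.9%.

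The thresholds cut through a continuous range on both sides. The lowest Schwann cell levels among the 33 were 20.5, 20.6 and 20.6 CPM, for ranks 9, 33 and 31 in replicate 3. Just outside, 3 transcripts with all other conditions met had 19.6, 19.3 and 18.9 CPM in a Schwann cell library. On the low side, ranks 28, 33 and 11 had 9.87, 9.74 and 9.45 CPM in their highest other library, and just outside stood 10.4, 10.5 and 10.6 CPM. The ranking score, in log2 units, ran from 7.69 for rank 1 to 1.01 for rank 33 with a median of 2.82. It was at least 4 for 9 transcripts and under 2 for 8.

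**Figure D3:**
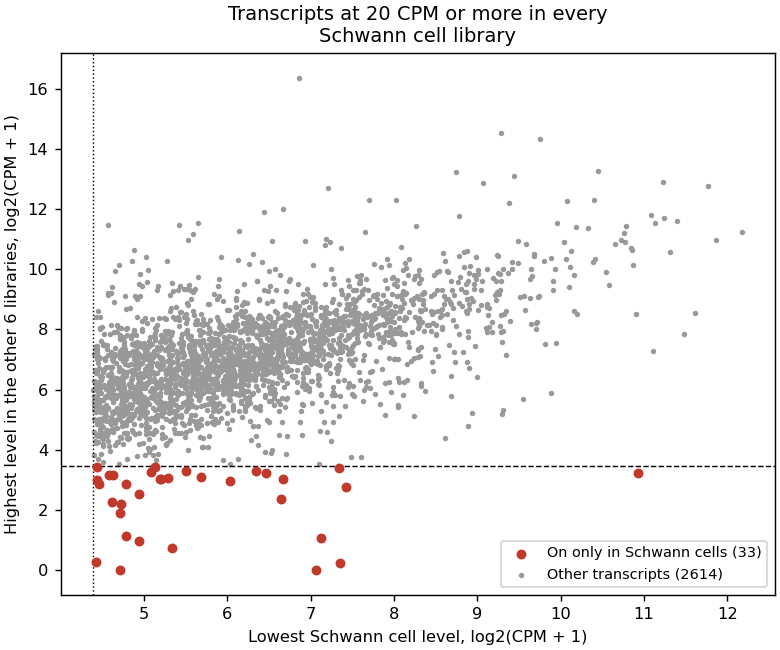
Lowest Schwann cell level against the highest level in the other 6 libraries, both as log2(CPM + 1), for the 2647 transcripts at 20 CPM or more in every Schwann cell library; the 33 described here are red and the lines mark 20 CPM (dotted) and 10 CPM (dashed). Of the 33, 20 reach at least 5 CPM in another population, and rank 1 lies furthest to the right among the 33.

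On in Schwann cells alone did not mean absent elsewhere. The highest level in another population was a median of 6.71 CPM, and it was at least 5 CPM for 20 of the 33. The number of the 33 at 0 was 14, 20 and 22 in oligodendrocyte lineage replicates 1, 2 and 3, and 9, 19 and 15 in neurons replicates 1, 2 and 3, so the ranges of these populations overlapped. All oligodendrocyte lineage libraries were at 0 for 9 transcripts, and 7 of these had counts in neurons. All neuron libraries were at 0 for 5 transcripts, and 3 of these had counts in the oligodendrocyte lineage. For 22 transcripts a single library held at least 50% of the summed CPM of the 6 libraries. The share of all low transcripts with this was not computed, so nothing is read from that count.

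Neurons replicate 1, the deepest library, was the highest of the 6 for 12 of the 31 transcripts with a count outside Schwann cells (38.7%). Over all 16845 transcripts that stayed under 10 CPM in the 6 libraries with a count in some of them, it was the highest for 24.4%. Its part in the low-side levels of the 33 was not tested. Without its condition the rule found 42 transcripts, within the range of 39 to 45 found when each of the 6 libraries was left out in turn.

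Rank 13 was the clearest case of an even low level in both other populations. It was at 101, 319 and 145 CPM in Schwann cells, at 7.07, 4.39 and 6.23 CPM in oligodendrocyte lineage libraries, and at 7.19, 6.29 and 6.18 CPM in neuron libraries. The 6 low libraries lay close together, and the Schwann cell mean of 188 ± 116 CPM (SD, n = 3) was 31.9 times that of the oligodendrocyte lineage and 28.7 times that of neurons. Apart from rank 1 it was the sole transcript with counts in all 6 other libraries. In TPM it did not meet the rule, at 15.6 ± 3.31 TPM in the oligodendrocyte lineage and 19.7 ± 2.37 TPM in neurons.

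The rule did not use the difference between the oligodendrocyte lineage and neurons, since it capped both alike. That cap of 10 CPM limits how far their levels can differ. Of the 31 transcripts with a count in either, 22 (71.0%) had a lower mean CPM in the oligodendrocyte lineage and 9 a higher one. Among the 16845 low transcripts the share with a lower mean there was 58.6%. Tested with edgeR's quasi-likelihood model across 23408 transcripts of all 9 libraries, with Benjamini-Hochberg adjustment, 0 of the 33 passed an adjusted p of 0.05, where 0.0854% of all transcripts did. All 33 entered that test through their Schwann cell counts. When only the oligodendrocyte lineage and neurons were fitted, 11 of the 33 passed the filter on low counts, 0 were called and 1 had an unadjusted p under 0.05, where 12.8% of all transcripts had one. In the fit of all 9 libraries an unadjusted p under 0.05 was reached by 9 of the 33, 1 higher and 8 lower in the oligodendrocyte lineage (11.4% of all transcripts). DESeq2 on all 9 libraries called 6 of the 31 for which it gave an adjusted p, all lower in the oligodendrocyte lineage (9.56% of all), and limma on log2(TPM + 1) called 2 of 33 (5.43% of all). The 33 were let in by the population in which they are high, and the cap limits differences between the other populations. Nothing is therefore read from these shares.

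The lowest adjusted p of that comparison belonged to rank 32. It was at 51.5, 26.9 and 22.9 CPM in Schwann cells, at 0 in all 3 oligodendrocyte lineage libraries and at 6.73, 7.85 and 6.71 CPM in neurons. The neuron libraries lay close together and above every oligodendrocyte lineage library (edgeR adjusted p = 0.143). DESeq2 and limma on log2(TPM + 1) each called it lower in the oligodendrocyte lineage, where they called 9.56% and 5.43% of all transcripts. As with the shares above, nothing is read from these calls. Its estimated counts were fractional in some library, so its zeros depend on how reads were divided. In TPM it did not meet the rule, with a neuron mean of 22.7 ± 2.61 TPM (SD, n = 3). The Schwann cell mean of 33.7 ± 15.5 CPM was 4.75 times the neuron mean of 7.10 ± 0.657 CPM (SD, n = 3 each), the smallest ratio to neurons among the 33. Ranks 22, 29 and 31 also had every neuron library above every oligodendrocyte lineage library. These 4 of 33 are 12.1%, against 14.7% of all tested transcripts. The 14.7% covers transcripts at any level, while the 33 were kept under 10 CPM in both populations. Nothing is therefore read from the difference between these shares.

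In the same edgeR fit, the contrasts that the rule used called few of the 33. Against the oligodendrocyte lineage 1 of the 33 was called, where 0.226% of all transcripts were called higher in Schwann cells. Against neurons 0 were called, where 0.0555% of all were called higher in Schwann cells. An unadjusted p under 0.05 was reached by 27 of the 33 against the oligodendrocyte lineage (17.1% of all transcripts) and by 21 against neurons (16% of all). DESeq2 called 26 of 31 against the oligodendrocyte lineage (16% of all) and 20 of 31 against neurons (14.8% of all). Limma on log2(TPM + 1) called 27 of 33 in each comparison, where it called 3.79% and 7.68% of all. These counts follow from how the transcripts were chosen, and nothing is read from them.

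The same thresholds were then applied to the other populations, as a description. Against the 33 of Schwann cells, 55 transcripts met them in the oligodendrocyte lineage and 219 in neurons. These were 1.25% of the 2647 transcripts at 20 CPM or more in all 3 Schwann cell libraries, 1.37% of 4024 in the oligodendrocyte lineage and 4.11% of 5331 in neurons. The median of the highest level elsewhere was 6.71 CPM for the Schwann cell transcripts, 6.51 CPM for those of the oligodendrocyte lineage and 0.597 CPM for those of neurons. No count in any of the other 6 libraries was found for 6.06%, 12.7% and 14.2% of the 3 lists.

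Most transcripts that reached 20 CPM in Schwann cells alone did so in a single library. With all 6 other libraries under 10 CPM, 33 transcripts reached it in all 3 Schwann cell libraries, 142 in exactly 2 and 1046 in exactly 1. The 33 are 2.70% of these 1221. In the oligodendrocyte lineage the counts were 55, 166 and 655, and in neurons 219, 256 and 593, so that 6.28% and 20.5% of such transcripts reached 20 CPM in all 3 libraries. Schwann cells had the shallowest libraries. With every library thinned to 7123174 counts, a setting added after the data were seen, Schwann cells had 32 such transcripts in all 3, 138 in exactly 2 and 1051 in exactly 1 library. At that depth the oligodendrocyte lineage had 58, 162 and 654, while neurons had 217, 260 and 599. There 20 CPM still stood for about 142 counts, so thinning could move few transcripts across a threshold. Nothing is therefore read from it about depth, and a part of depth or library preparation in these numbers was not tested.

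**Figure D4:**
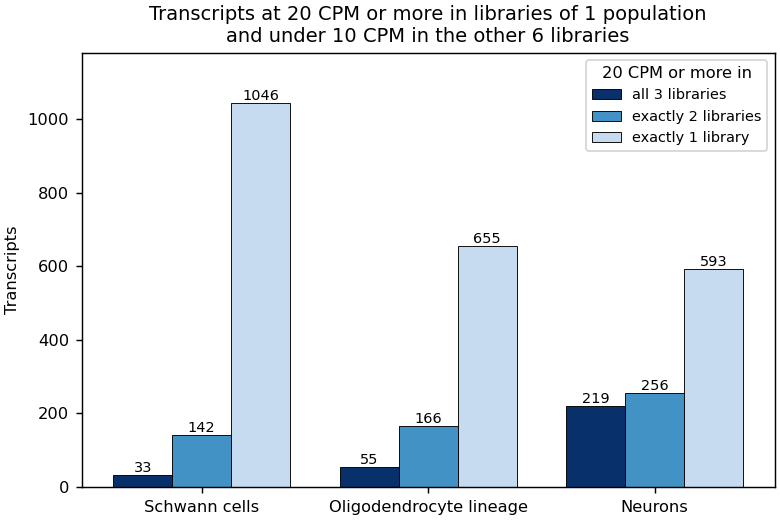
Number of transcripts at 20 CPM or more in all 3, exactly 2 or exactly 1 of a population's libraries (bar colours) and under 10 CPM in the other 6 libraries. Schwann cells have the fewest in all 3 libraries, 33, and the most in exactly 1, 1046.

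The 142 transcripts on in exactly 2 Schwann cell libraries met every other condition of the rule. The library that fell under 20 CPM was replicate 1 for 47, replicate 2 for 51 and replicate 3 for 44, so these numbers were similar. That library was at 0 for 71 of the 142, 24 times in replicate 1, 35 in replicate 2 and 12 in replicate 3. For those 71 the lower of the other Schwann cell libraries had a median of 29.8 CPM and reached up to 134 CPM. By comparison, 29 transcripts were kept out by a single oligodendrocyte lineage library at 10.6 to 74.5 CPM and 25 by a single neuron library at 10.4 to 39.3 CPM.

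Length and read sharing were not used by the rule, although counts grow with length. The 33 ran from 714 to 6965 bases with a median of 2113. The 2647 transcripts at 20 CPM or more in every Schwann cell library had a median of 2540. With TPM in place of CPM in the rule, the 39 transcripts found had a median of 2541 bases. Nothing is therefore read from the shorter median of the 33. The lists for the oligodendrocyte lineage and neurons had medians of 2087 and 2659 bases. Estimated counts were whole numbers, within a tolerance of 1e-06, in all 9 libraries for 10 of the 33 (30.3%), against 22.6% of the 2647. The other 23 had reads divided with other transcripts in some library, and their levels depend on that division. Of the 10, 8 were among ranks 1 to 16 and 2 among ranks 17 to 33. Counting only those 10, the summed Schwann cell level was 3488 CPM of 5485 CPM.

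**Figure D5:**
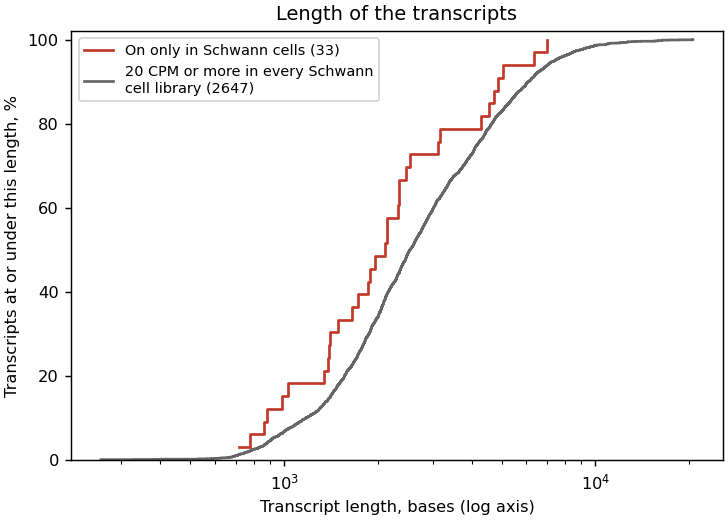
Cumulative share of transcripts (y axis, %) at or under a given length in bases (x axis, log scale) for the 33 and for the 2647 transcripts at 20 CPM or more in every Schwann cell library. The curve of the 33 lies to the left of the other at both quartiles and at the median, with medians of 2113 and 2540 bases. At the short end it starts further right, with shortest lengths of 714 and 258 bases.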

How the data were processed

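Per the labels' protocols, RNA of the sorted cells was extracted with a micro kit and made into libraries with a SMART-Seq v4 low-input kit. The deposited files hold estimated counts, lengths and effective lengths per transcript ID, per the file headers. Build danRer10, RSEM 1.2.15, Bowtie2 2.1.0, Trimmomatic and FastQC are named in the submitters' processing notes. Which program wrote the counts is not given in the sources used here.

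The transcripts and tests were chosen with earlier results of these data known. CPM used the unrounded estimated counts over the library sum, and levels are means ± SD over 3 libraries. Estimated counts divide reads between similar transcripts. IDs were looked up in tables of 29201 and 49597 genes, and 0 matched, so no sum per gene was made and no marker list or sequence was used. The rule for naming without gene symbols printed 2 IDs, and other transcripts are given by rank. Rank 12, 13 and 32 and others described singly were chosen after their values were seen.

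Rounded counts went into edgeR 4.0.16 under R 4.3.3 (filterByExpr, TMM factors, quasi-likelihood fit by group, 23408 transcripts, all 9 libraries, two-sided, Benjamini-Hochberg adjustment, adjusted p under 0.05). The filter kept all 33 transcripts, because they were high in Schwann cells. In this fit the common coefficient of variation between libraries of a group was 1.58. The code was tested on simulated data with a smaller spread, so that test does not show how many differences could be found here. Alternatives were DESeq2 1.42.0, limma 3.58.1 on log2(TPM + 1) with a pseudocount of 1, other scalings, filters and thresholds, thinning, leaving out each library and a replicate block. At most 0.106% of transcripts with 20 or more counts in both had identical counts in any pair of replicates.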

Additional observations from a re-analysis of the deposited data

How the results depend on the processing

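The rule found 33 transcripts, and 13 of these met it under all 4 other scalings (TMM, DESeq2 size factors, TPM and thinned counts). With TPM it kept 15 of the 33, with at least 10 and under 5 CPM 13, with at least 40 and under 10 CPM 13 of 13 found, and with at least 20 and under 1 CPM 6 of 6 found. Leaving out a library removes a condition of the rule, so it can only lengthen the list, and it gave 39 to 84 transcripts. The summed Schwann cell level of 5485 CPM became 5127 CPM with TMM scaling and 3488 CPM over transcripts with whole-number counts. The median length was 2113 bases over the 33, 2235 over the 28 found with TMM scaling and 2541 over the 39 found with TPM. It was 2233 bases over those of the 33 with whole-number counts. The median replicate ratio of 2.25 became 2.34 with TMM scaling, 2.31 with TPM and 1.98 over those with whole-number counts. Summing per gene was not run, because IDs are not paired with genes.

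Calls among the 33 were 1 against the oligodendrocyte lineage and 0 against neurons for Schwann cells, and 0 between the oligodendrocyte lineage and neurons. In that order, 0.795%, 0.355% and 0.0854% of all transcripts were called in either direction. Without a filter the calls were 4, 3 and 0 (0.634%, 0.376% and 0.17% of all). With at least 10 CPM in 3 libraries they were 6, 4 and 0 (2.51%, 2.38% and 0.484% of all). DESeq2 called 26, 20 and 6 of 31 (16%, 14.8% and 9.56% of all). Limma called 27, 27 and 2 of 33 (3.79%, 7.68% and 5.43% of all). Leaving out a library gave 0 to 1, 0 to 1 and 0 to 0. The shares of all were then 0.00378% to 1.43%, 0.00377% to 0.445% and 0% to 0.214%. DESeq2 size factors changed none of the 3 counts (0.666%, 0.29% and 0.0854% of all called). Fitting only the compared groups changed none either (0.0351%, 0.0766% and 1.3% of all). A fit of the oligodendrocyte lineage and neurons alone tested only 11 of the 33. With the replicate number as a block the calls were 0, 0 and 0, over 2, 0 and 0 calls in all, against 186, 83 and 20 without it. Nothing in the labels says that equal numbers share a batch, and deviations of equally numbered libraries correlated at -0.036 to 0.028, so the numbers were not taken as pairs. The causes of these differences were not tested.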
